A study of Mus musculus with 13 samples.

Results

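Sensory neurons of e14.5 mouse dorsal root ganglia (DRG) that carried the *TrkC:tdTomato* reporter fell into clusters in the authors' annotation, and 2 of these, cluster 3 (the *Maf*-high cluster) and cluster 2 (the *Etv1*-high cluster), are compared here. The members are all neurons that the deposited annotation places in cluster 3 or cluster 2 at this stage. Cluster 3 holds 34 neurons and cluster 2 holds 88, together 122 of the 169 neurons kept at e14.5 and of the 586 kept in the whole series. Cluster 1 (41 neurons) was left out because its neurons follow the well barcodes, and cluster 4 because it has 6 neurons.

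Proprioceptive sensory neurons (pSNs) report the stretch and tension of muscle through muscle spindles and Golgi tendon organs. They need the neurotrophin NT-3 and its receptor TrkC (encoded by *Ntrk3*) for survival, and in the embryo the transcription factor Runx3 holds them in the TrkC lineage, while the ETS factor Etv1 (Er81) acts later in the growth of their axons towards motor neurons. *Maf* encodes a transcription factor known in DRG for its part in the development of touch neurons, the low-threshold mechanoreceptors of the skin. TrkC is also made by some of those touch neurons, so a *TrkC* reporter does not mark pSNs alone.

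Embryos at e14.5 carried *TrkC:tdTomato*, were of either sex, and numbered 2 in all. Their DRG were dissociated, and viable tdTomato+ neurons (bright for Calcein Blue, free of Sytox red) were placed singly by FACS in the wells of 2 plates, the replicates. Neither the labels nor the methods say whether the plates share embryos, so the spread between them may be technical. The later stages carried another reporter, *PV:Cre+/-;Rx3:Flp+/-;Ai65+/-*, which needs both *PV* and *Rx3* to have been expressed, on 2 plates at p0, 4 at p12 and 5 in the adult. The e14.5 wells held 1032454 and 915750 UMIs (unique molecular identifiers, counts of captured RNA molecules). Levels below are in CPM, a gene's UMIs per 1000000 UMIs in the sum of the neurons that 1 cluster has on 1 plate.

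Neurons of cluster 3 held more RNA molecules than those of cluster 2 on both plates. In cluster 2 the mean was 12933 ± 3554 UMIs (SD over 40 neurons) on replicate 1 and 9850 ± 2113 (48 neurons) on replicate 2. In cluster 3 it was 16123 ± 1857 UMIs (19 neurons) and 13221 ± 2698 (15 neurons), 1.25 and 1.34 times as many. Genes with a UMI per neuron were 1.16 and 1.21 times as many. Neurons of both clusters overlapped in depth, and the share of mitochondrial UMIs was 1.57% and 1.76% in cluster 2 and 1.46% and 1.63% in cluster 3. For some genes the share of neurons with a UMI is given a second time at equal depth, from 8395 UMIs drawn at random per neuron (thinning), which left 76 neurons of cluster 2 and 33 of cluster 3.

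**Figure D1:**
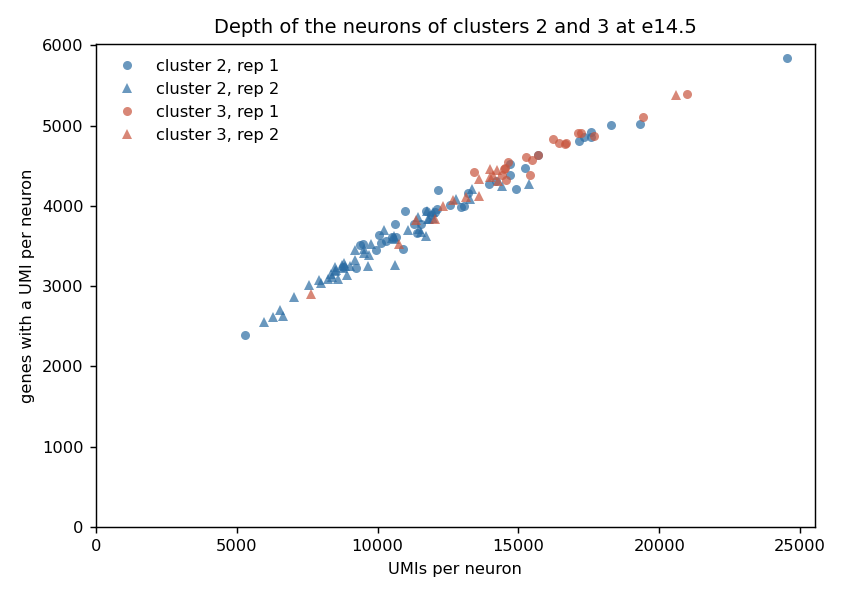
UMIs per neuron (horizontal) against genes with a UMI per neuron (vertical), 1 point per neuron, with colour for the cluster and shape for the plate. Neurons of both clusters lie along the same curve, and those of cluster 3 lie further to the right on average (1.25 and 1.34 times the mean UMIs of cluster 2).

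The plates use the same 96 well barcodes. Of 49 barcodes that held a neuron of cluster 2 or 3 on both plates, 27 were cluster 2 on both, 4 were cluster 3 on both and 18 changed cluster. By comparison, 12 of 14 kept barcodes of cluster 1 neurons on replicate 1 were cluster 1 again on replicate 2.

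The markers that name the clusters separated them on both plates, as a description since they belong to the rule. *Maf* (chromosome 8, 115703253 to 115706894, GRCm38.p6) was at 34.8 and 40.2 CPM in cluster 2 and at 428 and 338 CPM in cluster 3 (log2 difference 3.32 ± 0.24, SE). *Etv1* (chromosome 12, 38780082 to 38870483) was at 880 and 787 CPM in cluster 2 and at 134 and 85.7 CPM in cluster 3 (log2 difference -2.92 ± 0.18). The sums do not overlap, and the median neurons lie apart in the same direction. The median neuron of cluster 2 had no *Maf* UMI on either plate and that of cluster 3 had 390 and 264 CPM, against 835 and 760 CPM of *Etv1* in cluster 2 and 47.6 and 73.5 CPM in cluster 3.

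The separation was not absolute in single neurons. All 88 neurons of cluster 2 had an *Etv1* UMI, and 13 of them also had a *Maf* UMI. In cluster 3, *Maf* was seen in 31 of 34 neurons and *Etv1* in 20, and 18 neurons had both. Within a neuron, the *Maf* count passed the *Etv1* count in 24 of 34 neurons of cluster 3 and in 1 of 88 of cluster 2. The neurons that were left out stood on either side, with *Etv1* at 761 and 790 CPM and *Maf* at 13.2 and 5.10 CPM in cluster 1, and *Maf* at 847 CPM (1 neuron) and 217 CPM (5 neurons) in cluster 4.

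**Figure D2:**
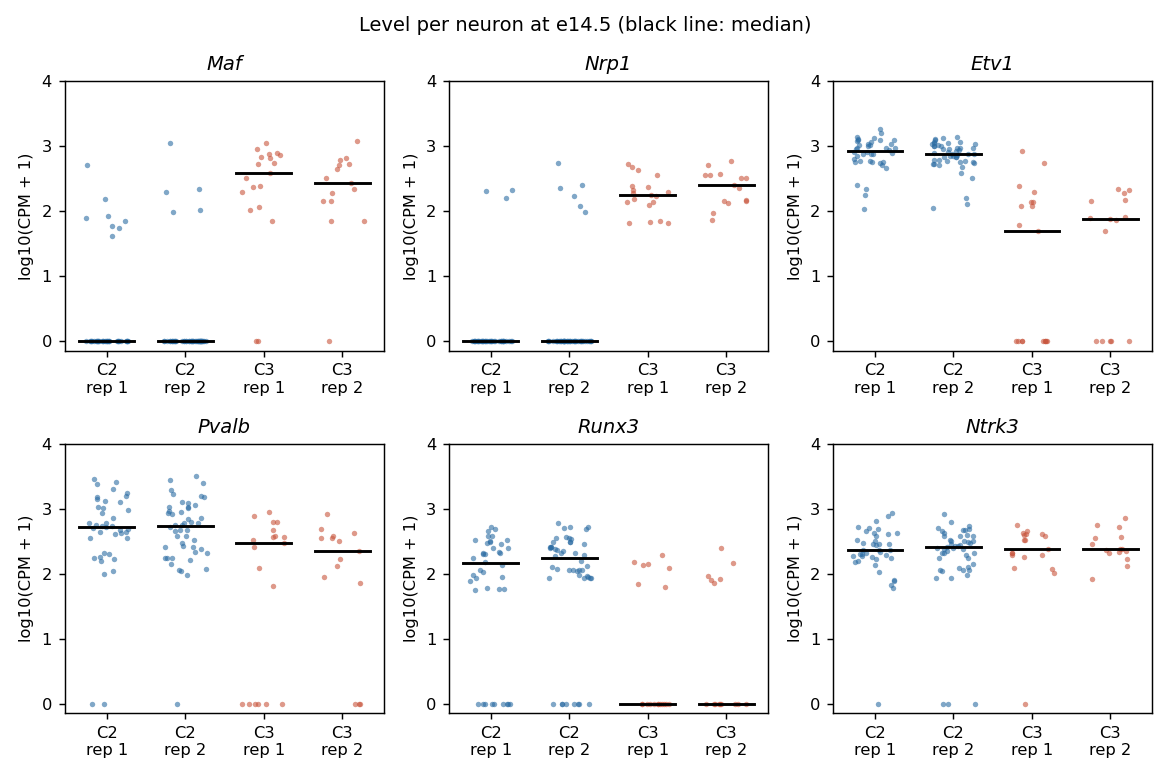
Level in each neuron (log10 of CPM + 1, vertical) by cluster (C2, C3) and plate (rep 1, rep 2) for 6 genes, 1 point per neuron, with the median as a black line. *Maf* and *Nrp1* have a median of 0 CPM in cluster 2 and *Runx3* has one of 0 CPM in cluster 3, while the medians of *Ntrk3* lie between 228 and 252 CPM in all 4 sets of neurons.

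Across all genes, edgeR's quasi-likelihood test was run on the 4 sums (cluster by plate) with plate as a block. Of 5533 genes tested, 133 (2.40%) were called at an adjusted p (Benjamini-Hochberg) under 0.05, 73 (1.32%) higher in cluster 3 and 60 (1.08%) higher in cluster 2. All 133 differed in the same direction on both plates, against 56.7% of all genes tested. The authors found the clusters in these same neurons, so a call says how far both plates repeat a difference, and is no independent evidence that the clusters exist. Adjusted p-values below are from this fit, with n = 2 plates, and SE is the size of the log2 difference over the root of its F. DESeq2 on the same sums called 34 genes, all of them among the 133. With neurons thinned to equal depth, 148 of 3925 genes were called, 96 of the 133 among them.

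**Figure D3:**
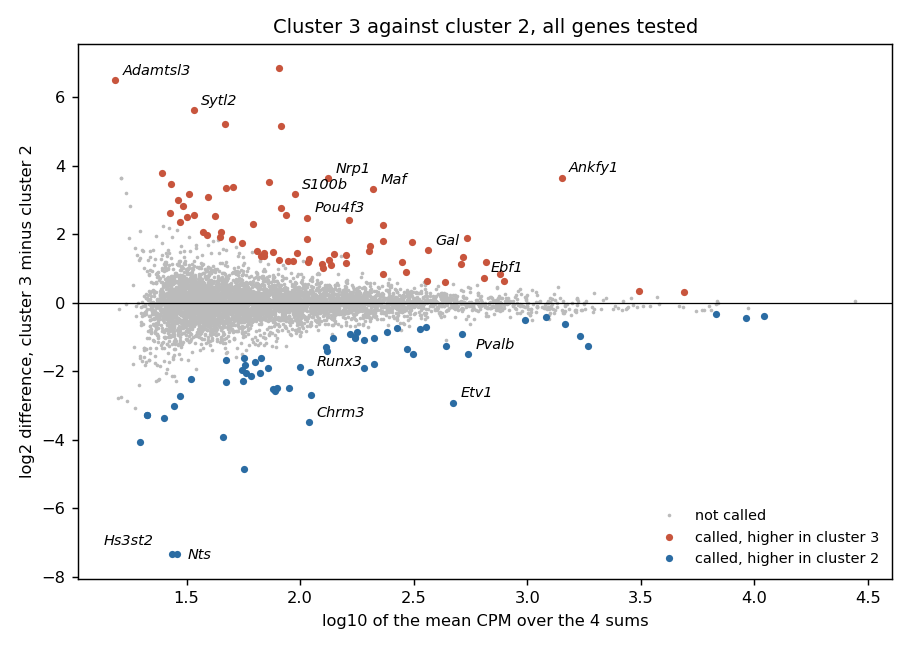
Log2 difference of cluster 3 minus cluster 2 (vertical) against the mean level over the 4 sums (log10 CPM, horizontal) for the 5533 genes tested, 1 point per gene, grey where not called. The 73 genes called higher in cluster 3 lie above 0 and the 60 called higher in cluster 2 below, with *Adamtsl3*, *Hs3st2* and *Nts* farthest out among the labelled genes and at 0 UMIs in 1 cluster.

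Of 11 marker genes of pSNs, all had a UMI in these neurons, 8 were tested, 4 were called lower in cluster 3 (*Etv1*, *Pvalb*, *Runx3*, *Spp1*) and 1 higher (*Pou4f3*), where 1.08% of all genes tested were called lower and 1.32% higher. *Etv1* belongs to the rule, and *Pvalb* and *Runx3* are markers given with it, so this count is a description only. The median log2 difference was -1.17 over the 8 and -0.85 over the 7 without *Etv1*, against -0.01 over all genes tested. *Pvalb* (parvalbumin, a calcium buffer of pSNs, chromosome 15, 78191112 to 78206400) was at 847 and 766 CPM in cluster 2 and at 297 and 287 CPM in cluster 3 (log2 difference -1.50 ± 0.14, adjusted p = 2.24e-05), and 25 of 34 neurons of cluster 3 still had a UMI. *Runx3* (chromosome 4, 135120645 to 135177990) was at 162 and 190 CPM in cluster 2 and at 42.4 and 45.4 CPM in cluster 3 (-2.01 ± 0.28, adjusted p = 0.000801). It was seen in 71 of 88 neurons of cluster 2 and in 13 of 34 of cluster 3, and after thinning in 69.2% and 67.6% against 26.3% and 21.4%. *Spp1* (osteopontin, a secreted phosphoprotein) was at 159 and 99.4 CPM against 29.4 and 15.1 CPM (-2.53 ± 0.35, adjusted p = 0.000728). Its call was lost without replicate 1 (adjusted p = 0.241) and without replicate 2 (0.0551), and DESeq2 did not call *Runx3* (0.108) or *Spp1* (0.108).

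*Pou4f3*, a POU-domain transcription factor, went the other way. The authors describe it as broadly expressed over DRG neurons early in development and limited to some pSNs later. It was at 29.0 and 33.8 CPM in cluster 2 and at 140 and 227 CPM in cluster 3 (2.48 ± 0.29, adjusted p = 0.000169), and was lost without replicate 2 (adjusted p = 0.108). *Ntrk3* itself was at 276 and 271 CPM in cluster 2 and at 271 and 308 CPM in cluster 3 (0.04 ± 0.17, adjusted p = 0.973). So both clusters held the receptor whose reporter they were sorted by, at levels that overlap. *Heg1* (-0.85 ± 0.58, adjusted p = 0.656) and *Cdh13* (-0.75 ± 0.27, adjusted p = 0.246) did not pass the test.

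The 4 genes of this list that were lower in cluster 3 were looked at for the sequence before their start, printed here because they fell together, with that of *S100b*, a gene that rose, beside them. The 250 bases before the start are from RefSeq (GRCm38.p6), printed 5′ to 3′ on the gene's strand, at chr12:38779832-38780081, plus strand (*Etv1*), chr4:135120395-135120644, plus strand (*Runx3*), chr15:78206401-78206650, minus strand (*Pvalb*), chr5:104434861-104435110, plus strand (*Spp1*) and chr10:76253586-76253835, plus strand (*S100b*). Capitals mark, on either strand, the Runx core TGTGGT, the Maf core TGCTGA and the ETS core CCGGAA, which do not overlap here.
Etv1: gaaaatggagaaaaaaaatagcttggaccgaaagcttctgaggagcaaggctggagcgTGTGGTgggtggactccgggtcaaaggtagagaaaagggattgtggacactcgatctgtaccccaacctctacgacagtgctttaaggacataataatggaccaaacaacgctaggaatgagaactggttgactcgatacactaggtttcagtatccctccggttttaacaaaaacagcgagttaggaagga
Runx3: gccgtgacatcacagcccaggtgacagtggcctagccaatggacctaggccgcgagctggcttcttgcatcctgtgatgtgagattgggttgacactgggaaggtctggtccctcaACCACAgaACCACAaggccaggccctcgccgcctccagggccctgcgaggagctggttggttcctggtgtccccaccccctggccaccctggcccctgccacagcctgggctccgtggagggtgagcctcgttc
Pvalb: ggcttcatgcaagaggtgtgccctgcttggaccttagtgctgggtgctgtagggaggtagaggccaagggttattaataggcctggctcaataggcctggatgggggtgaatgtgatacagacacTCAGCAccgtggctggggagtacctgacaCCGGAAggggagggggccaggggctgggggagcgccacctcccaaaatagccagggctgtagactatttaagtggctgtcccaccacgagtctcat
Spp1: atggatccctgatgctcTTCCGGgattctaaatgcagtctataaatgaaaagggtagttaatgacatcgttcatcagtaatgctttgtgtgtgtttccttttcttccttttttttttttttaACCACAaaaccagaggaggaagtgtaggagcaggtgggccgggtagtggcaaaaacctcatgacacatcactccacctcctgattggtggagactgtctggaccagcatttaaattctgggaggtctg
S100b: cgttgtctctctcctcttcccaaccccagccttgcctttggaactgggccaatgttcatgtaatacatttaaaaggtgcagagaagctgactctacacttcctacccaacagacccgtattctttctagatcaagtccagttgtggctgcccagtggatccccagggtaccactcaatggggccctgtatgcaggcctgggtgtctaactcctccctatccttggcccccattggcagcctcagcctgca

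*Etv1* has a Runx core beginning 192 bases before its start, *Runx3* has a pair of them at 134 and 126 bases, *Pvalb* a Maf core at 125 and an ETS core at 96 bases, and *Spp1* an ETS core at 233 and a Runx core at 128 bases. The *S100b* sequence holds none of the 3 strings. Sequences before a start of *Chrm3*, which fell, and of *Nrp1* and *Kcna2*, which rose, held none either. They are not printed, as those starts lie inside the annotated gene. Over the called genes these strings were not frequent. A gene was counted if any of its promoters held the string. The Runx core was found for 6 of 50 genes higher in cluster 3 (12.0%) and 6 of 49 higher in cluster 2 (12.2%). It was found for 12.1% of the 3726 tested genes with a sequence. Counted by single promoter, which is another unit, it was in 14.05% of all 32851. The Maf core was found for 4 (8.0%) and 6 (12.2%), against 14.4% of tested genes and 16.1% of single promoters. The ETS core was found for 8 (16.0%) and 6 (12.2%), against 26.8% of tested genes and 12.0% of single promoters. A match is a description of letters and not a binding site.

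Of 14 cutaneous mechanoreceptor markers, *Maf* was the only one of the 4 tested that was called (2.40% of all genes tested were), and it is part of the rule. *Shox2*, a homeobox gene of touch neurons, was at 139 and 127 CPM in cluster 2 and at 121 and 40.3 CPM in cluster 3 (-0.69 ± 0.31, adjusted p = 0.396). *Cux2* (783 and 842 against 865 and 540 CPM) and *Necab2* (42.5 and 46.5 against 49.0 and 65.6 CPM) did not pass the test either. *Mafa*, *Kit* and *Colq* had no UMI in any of the 122 neurons. *Ret*, the receptor of early touch neurons, had 8 UMIs in cluster 2 and 1 in cluster 3, and *Ntrk2* (TrkB) had 1 UMI in all. A UMI of *Cux2* was seen in 86 of 88 neurons of cluster 2 and in 32 of 34 of cluster 3, one of *Shox2* in 48 and 17, and one of *Necab2* in 37 and 18. No name of a cell type is given to cluster 3 here. Without *Maf*, the summed level of the list was 999 and 1083 CPM in cluster 2 and 1081 and 701 CPM in cluster 3, and with it 1034 and 1123 CPM against 1508 and 1039 CPM.

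Markers of other cells were mostly at or near 0 in both clusters. Of 15 nociceptor and C-fibre markers, 7 had no UMI (*Runx1*, *Prdm12*, *Scn10a*, *Calca*, *Calcb*, *Mrgprd*, *Trpm8*), 4 were tested, and 1 was called, where 1.08% of all genes tested were called lower. It was *Tac1*, the gene of substance P, lower in cluster 3 (114 and 84.6 against 29.4 and 15.1 CPM, -2.13 ± 0.37, adjusted p = 0.00504). This call was lost without either plate (0.42 without replicate 1, 0.397 without replicate 2) and under DESeq2 (0.66). The list summed to 1504 and 1246 CPM in cluster 2 and to 1593 and 1508 CPM in cluster 3, and *Prph* (peripherin), which was at 1270 and 1091 against 1469 and 1412 CPM, made up most of it. *Gfra3* and *P2rx3* did not pass the test.

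Of 12 glial markers, *S100b*, a calcium-binding protein, was tested and was called higher in cluster 3. It was at 19.3 and 16.9 CPM in cluster 2 and at 147 and 197 CPM in cluster 3 (3.17 ± 0.33, adjusted p = 5.21e-05). It had a UMI in 15 of 88 and 24 of 34 neurons. *Sox10*, *Erbb3*, *Foxd3* and *Cdh19* had no UMI. *Pmp22*, a myelin protein gene, had no UMI and 7 UMIs in the sums of cluster 3 (0 and 35.3 CPM) and none and 2 in those of cluster 2 (0 and 4.23 CPM). *Fabp7*, a fatty acid-binding protein of glial precursors, was at 13.1 and 5.04 CPM in cluster 3 and at 3.87 and 0 CPM in cluster 2. *Mbp*, another myelin protein gene, lay the other way, at 11.6 and 4.23 CPM in cluster 2 and at 6.53 and 0 CPM in cluster 3, and *Apoe* was at 7.73 and 0 against 6.53 and 0 CPM. *Gja1* was at 1.93 CPM in 1 sum of cluster 2, with no UMI in the other sums. None of these 5 genes had enough UMIs to be tested. The part of glial RNA in the level of *S100b* was not tested. The list summed to between 25.4 and 44.5 CPM in cluster 2 and to 180 and 237 CPM in cluster 3, where *S100b* made up most of it (147 and 197 CPM). Of 10 markers of cycling cells, 11 of blood and 10 of fibroblasts and vessels, none was tested, and no list summed to more than 16.9 CPM in any sum.

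Among the largest rises in cluster 3 were *Ankfy1* and *Nrp1*, each with a UMI in nearly all of its neurons. *Ankfy1* (rabankyrin-5, an endosomal protein) was at 178 and 228 CPM in cluster 2 and at 2279 and 2975 CPM in cluster 3 (3.66 ± 0.11, adjusted p = 4.96e-11), with a UMI in 33 of 34 neurons of cluster 3 and in 52 of 88 of cluster 2. *Nrp1*, the neuropilin that binds class 3 semaphorins, was at 11.6 and 27.5 CPM against 209 and 282 CPM (3.63 ± 0.31, adjusted p = 8.42e-06). All 34 neurons of cluster 3 had an *Nrp1* UMI and 9 of 88 of cluster 2 did. Thinning left 84.2% and 92.9% against 7.69% and 8.11%. Both genes also had UMIs in cluster 4, with *Ankfy1* at 6774 CPM (1 neuron) and 1156 CPM (5 neurons) and *Nrp1* at 212 and 144 CPM, the first of these from 1 UMI.

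*Cpne6*, a copine that binds membranes in the presence of calcium, was at 11.6 and 10.6 CPM against 127 and 141 CPM (3.52 ± 0.37, adjusted p = 6.25e-05), and *Cpne4*, of the same family, was at 3.87 and 4.23 against 39.2 and 60.5 CPM (3.47 ± 0.66, adjusted p = 0.00982). *Sytl2*, a synaptotagmin-like protein of vesicle docking, had 1 UMI in cluster 2 and 33 in cluster 3, a pooled ratio of 64.7 (exact 95% interval 10.8 to 2634). *Adamtsl3*, a secreted matrix protein, had none in cluster 2 and 15 in 8 neurons of cluster 3, at least 9.81-fold higher when cluster 2 is set to 3 counts over the group. *Layn* (layilin, a hyaluronan receptor) had 2 UMIs against 41 (ratio 40.2, 10.4 to 343). Intervals and limits cover counting error only. Calls were lost without replicate 1 for *Adamtsl3* (adjusted p = 0.15) and *Cpne4* (0.0602), and without replicate 2 for *Adamtsl3* (0.171), *Cpne4* (0.166) and *Layn* (0.062).

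The other 5 of these rises, *S100b* and *Maf* aside, were smaller or less even. *Pdlim1* (a PDZ and LIM protein of actin fibres) was at 5.80 and 10.6 against 45.7 and 141 CPM, and *Car10* (a carbonic anhydrase-related protein) at 5.80 and 6.35 against 71.8 and 45.4 CPM. *Tusc5* was at 1.93 and 6.35 CPM in cluster 2 and at 264 and 55.5 CPM in cluster 3, so the plates of cluster 3 differ widely. Without replicate 1, *Tusc5* (adjusted p = 0.262), *Car10* (0.191), *Plxna4* (0.156) and *Kcna2* (0.0901) were not called, and without replicate 2 *Pdlim1* (0.17) and *Kcna2* (0.17) were not. DESeq2 did not call *Tusc5* (0.156), *Car10* (0.376), *Plxna4* or *Kcna2*.

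**Figure D4:**
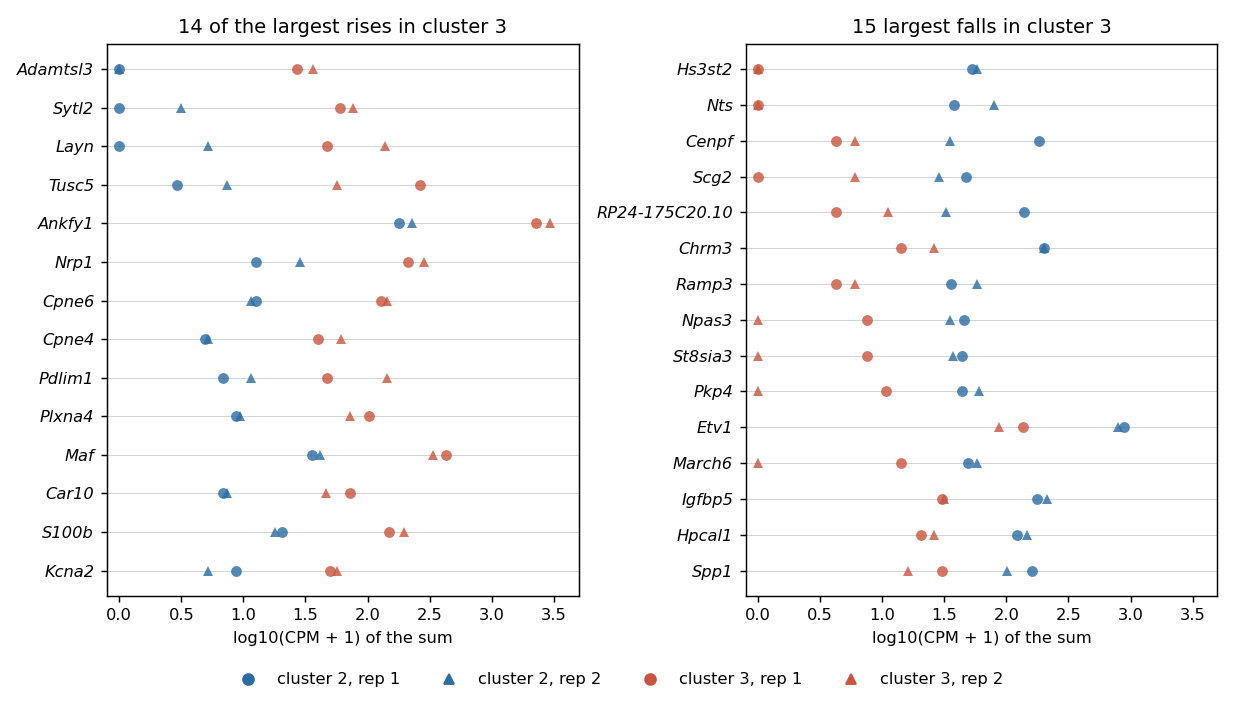
Level of each sum (log10 of CPM + 1, horizontal) for 14 of the largest rises (left) and the 15 largest falls (right) in cluster 3, with colour for the cluster and shape for the plate. In each of the 29 genes both sums of 1 cluster lie above both of the other. The genes were chosen by a test on these same sums, and the share over all genes tested was not counted, so this is a description.

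The largest falls in cluster 3 were led by genes with no UMI in any of its neurons. *Hs3st2*, a heparan sulfate sulfotransferase, had 54 UMIs in 31 neurons of cluster 2 and none in cluster 3, at least 9.17-fold lower there. *Nts*, the gene of the peptide neurotensin, had 56 UMIs in 27 neurons and none in cluster 3, at least 9.51-fold lower. *Chrm3*, a muscarinic acetylcholine receptor, was at 201 and 199 CPM in cluster 2 and at 13.1 and 25.2 CPM in cluster 3 (-3.48 ± 0.35, adjusted p = 4.35e-05), with a UMI in 75 of 88 and 9 of 34 neurons. *Igfbp5*, a binding protein of insulin-like growth factors, was at 176 and 212 against 29.4 and 30.3 CPM (-2.69 ± 0.31, adjusted p = 0.000128). *Hpcal1*, a neuronal calcium sensor, was at 120 and 146 against 19.6 and 25.2 CPM (-2.59 ± 0.35, adjusted p = 0.000649), and DESeq2 did not call it (0.0781). The call of *Nts* was lost without replicate 2 (0.171).

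Smaller counts stood behind the next falls. *Scg2* (secretogranin II, a granule protein) had 37 UMIs in cluster 2 and 1 in cluster 3 (ratio 18.9, exact 95% interval 3.18 to 765), *Ramp3* (a receptor activity-modifying protein) had 45 and 2 (11.5, 3.00 to 97.6), and *Npas3* (a transcription factor) and *St8sia3* (a sialyltransferase) had 39 and 2 each (9.94, 2.57 to 85.0). *Pkp4* (a plakophilin) had 50 and 3 (8.49, 2.74 to 42.6), and *March6* (a ubiquitin ligase) 52 and 4. Without replicate 1 the calls of *Scg2* (adjusted p = 0.634), *Ramp3* (0.313), *Npas3* (0.189) and *St8sia3* (0.112) were lost, and without replicate 2 those of *Ramp3* (0.452), *Npas3* (0.247), *St8sia3* (0.193), *Pkp4* (0.253) and *March6* (0.36). After thinning *Npas3* was not called (0.107).

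Some calls rest on few neurons. *Cenpf*, a centromere protein, had 111 UMIs in cluster 2, all in 6 neurons and 49.5% of them in 1, and *RP24-175C20.10* had 76.7% of 86 UMIs in 1 neuron. In cluster 3, 1 neuron held 70.0% of the UMIs of *Slc39a10*, 63.2% of *Gys1*, 57.6% of *Pcgf2* and 42.2% of *Ncbp3*. Without replicate 1, *Cenpf* (adjusted p = 0.739) and *RP24-175C20.10* (0.909) were not called, nor was *RP24-175C20.10* without replicate 2 (0.365), under DESeq2 (0.349) or with all stages fitted together (0.277).

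Of 34 transcription factors of sensory neurons, 18 were tested, 4 were called higher in cluster 3 and 3 lower, against 1.32% and 1.08% of all genes tested. *Maf* and *Etv1*, both of the rule, are among these 7, and 5 of the 16 others tested were called. The median log2 difference was -0.29 without these genes. Beside *Maf*, *Pou4f3*, *Etv1* and *Runx3*, *Isl2*, a LIM-homeodomain factor, was at 17.4 and 12.7 CPM in cluster 2 and at 55.5 and 70.6 CPM in cluster 3 (1.98 ± 0.47, adjusted p = 0.0397). *Ebf1*, a helix-loop-helix factor, was at 481 and 474 against 842 and 772 CPM (0.73 ± 0.12, adjusted p = 0.00367). *Tshz2*, a zinc finger factor, was at 348 and 305 against 97.9 and 95.8 CPM (-1.79 ± 0.21, adjusted p = 0.000169), with no overlap between the groups. *Isl1*, a factor of all DRG neurons, was at 798 and 596 against 748 and 540 CPM (-0.14 ± 0.12, adjusted p = 0.738), and *Cbfb*, the partner of Runx factors, at 112 and 118 against 121 and 121 CPM (adjusted p = 0.982). The call of *Isl2* was lost under DESeq2 (1.00), without replicate 1 (0.155), without replicate 2 (0.431) and after thinning (0.309), and that of *Ebf1* under DESeq2 (0.334) and without replicate 1 (0.181).

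Axon guidance genes held 3 rises and 1 fall among 15 tested of 45, against 2.40% called of all genes tested. *Efna5* (ephrin A5, a repellent ligand of EphA receptors) was at 69.6 and 88.8 CPM in cluster 2 and at 415 and 353 CPM in cluster 3 (2.26 ± 0.21, adjusted p = 2.37e-05). *Plxna4*, a plexin that signals with neuropilins, was at 7.73 and 8.46 against 101 and 70.6 CPM (3.34 ± 0.48, adjusted p = 0.00095, lost without replicate 1 at 0.156 and under DESeq2 at 0.0551). *Plxnd1*, another plexin, moved the other way, from 126 and 142 CPM in cluster 2 to 22.9 and 25.2 CPM in cluster 3 (-2.48 ± 0.35, adjusted p = 0.000728, under DESeq2 0.0997). With *Nrp1*, the receptors of semaphorins that were called were thus *Nrp1* and *Plxna4* up and *Plxnd1* down. The median of the 15 was -0.33. *Pcdh17* was the only one called of 9 cadherins tested (29.0 and 19.0 against 71.8 and 101 CPM, adjusted p = 0.0299, lost without replicate 1 at 0.181, without replicate 2 at 0.685, under DESeq2 at 1.00, after thinning at 0.136 and with all stages at 0.0585).

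Genes of excitability and signalling are given by list, against the 2.40% called of all genes tested. Of 7 potassium channel genes tested, *Kcna2* (a Kv1 subunit of fast axons) was called (7.73 and 4.23 against 49.0 and 55.5 CPM, 3.00 ± 0.60, adjusted p = 0.0142). DESeq2 called none of the 7. Of the 12 sodium, calcium and HCN channel genes tested, 0 were called by edgeR or DESeq2. An unadjusted p under 0.05 was found for 4 of the 12, a larger share than the 11.8% of all genes tested (653 of 5533). Not called either was *Piezo2*, the stretch-gated channel of pSNs (172 and 239 against 222 and 323 CPM, 0.37 ± 0.18, adjusted p = 0.456). Of 4 transmitter and neuropeptide genes tested, 1 was called higher and 1 lower. *Gal* (galanin) was at 153 and 207 CPM in cluster 2 and at 369 and 736 CPM in cluster 3 (1.54 ± 0.18, adjusted p = 0.000139, without replicate 2 0.171). Of 4 ETS and Sprouty genes tested, 1 was called higher and 1 lower, the latter being *Etv1* of the rule. *Spry4*, an inhibitor of receptor tyrosine kinase signalling, was at 46.4 and 55.0 against 134 and 151 CPM (1.46 ± 0.27, adjusted p = 0.00883), while *Spry2* was at 597 and 535 against 581 and 509 CPM. The call of *Spry4* was lost without replicate 1 (0.404), without replicate 2 (0.327) and under DESeq2 (0.979). Among receptors of neurotrophins and GDNF ligands, *Ntrk3*, *Ngfr* and *Gfra3* were tested, and 0 were called by edgeR or DESeq2, with an unadjusted p under 0.05 for 2 of them. *Ngfr* (p75) was at 73.5 and 99.4 against 153 and 156 CPM (0.83 ± 0.25, adjusted p = 0.122), and passed after thinning (0.0403).

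No call was made by edgeR or DESeq2 among 23 axon growth genes, 6 filament genes, 18 other adhesion genes, 5 Hox genes, 8 Id and Notch genes and 4 stress genes tested. Over these, the 2 tested genes of mechanotransduction, the receptors and the sodium, calcium and HCN channels together, 21 of 81 genes (25.9%) had an unadjusted p under 0.05, against 11.8% of all genes tested. The medians of the first 6 lists lay between -0.13 and 0.37 on the log2 scale. The neurofilament *Nefl* was at 1608 and 1510 CPM in cluster 2 and at 1479 and 1684 CPM in cluster 3.

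The p0, p12 and adult plates, which the e14.5 clustering did not use, give the later levels of these genes. They differ in reporter as well as in age, and these cannot be told apart. Of the 73 genes higher in cluster 3, both p0 plates were below both cluster 3 sums in 66 (90.4%), against 48.8% of all 2722 genes with a higher estimate in cluster 3. Of the 60 genes higher in cluster 2, both p0 plates were below both cluster 2 sums in 35 (58.3%), against 44.9% of 2811. On the p12 plates these shares were 75.3% of the 73 (against 47.0%) and 65.0% of the 60 (against 46.5%), and on the adult plates 67.1% (against 48.6%) and 61.7% (against 48.4%), so the gap between the lists was smaller there. The called genes were chosen as high in that cluster, so these shares are descriptions.

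*Etv1* was at 909 and 986 CPM on the p0 plates, *Pvalb* at 3493 and 3624 CPM, and *Maf* at 40.9 and 62.0 CPM. For *Etv1* and *Maf* the p0 levels are near the cluster 2 sums, while *Pvalb* was above both clusters. At p12 and in the adult the medians were 508 and 406 CPM for *Etv1*, below its cluster 2 sums, and 79.6 and 126 CPM for *Maf*, above its cluster 2 sums and below those of cluster 3. For *Pvalb* they were 3285 and 2178 CPM. *Runx3* was at 38.1 and 42.4 CPM at p0, near the level of cluster 3. *Layn* had no UMI on any of the 11 later plates, and *Nrp1* was between 0 and 9.35 CPM there. *Ankfy1* had medians of 1622, 633 and 1755 CPM at p0, p12 and in the adult, above its cluster 2 sums and below those of cluster 3. Other genes of cluster 3 were higher later. *S100b* was at 248 and 390 CPM at p0, with a median of 2715 CPM at p12 and 4114 CPM in the adult, and *Kcna2* went from 46.8 and 56.6 CPM at p0 to medians of 268 and 379 CPM. *Cpne6* had medians of 185, 247 and 238 CPM, above its cluster 2 sums. Among genes of cluster 2, *Hs3st2* had medians of 229, 175 and 193 CPM, *Spp1* of 90.8, 777 and 1349 CPM and *Scg2* of 126, 257 and 151 CPM, while *Nts* and *Ramp3* were at medians of 0.558 CPM or less at p12 and in the adult.

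**Figure D5:**
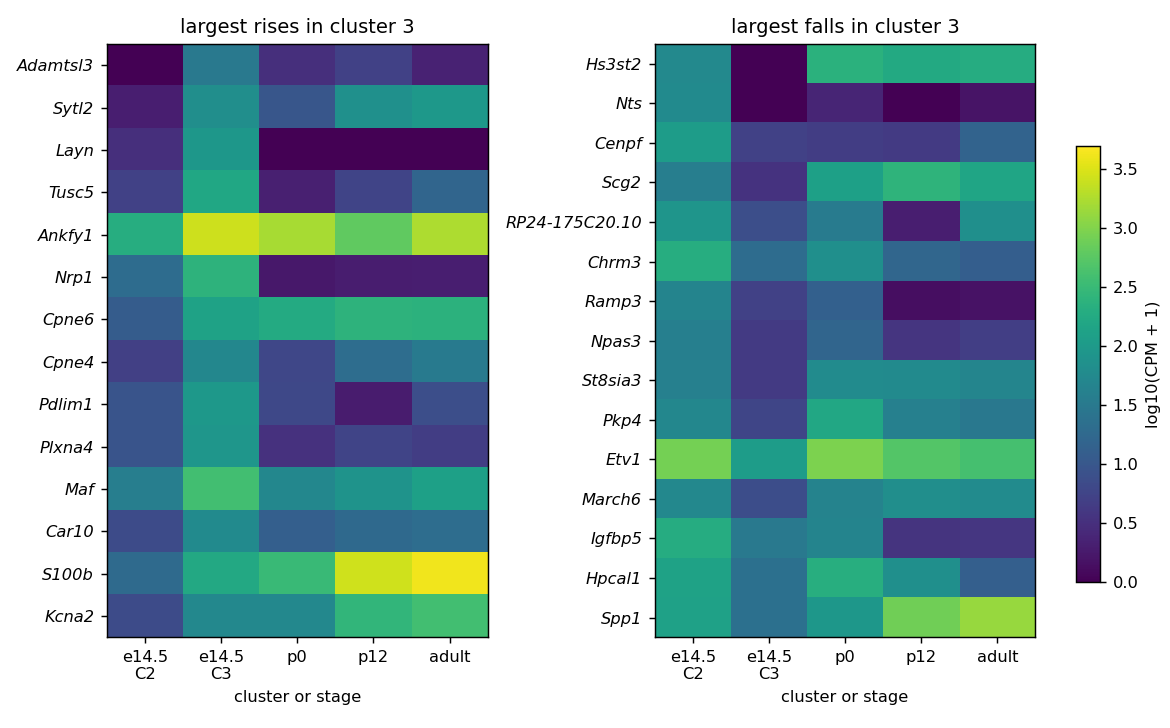
Level (colour, log10 of CPM + 1) of 14 of the largest rises (left) and the 15 largest falls (right) in cluster 3, by cluster at e14.5 (mean of 2 sums) and by stage later (median over plates). *Layn* is at a median of 0 CPM in each later stage, while *S100b* and *Kcna2* rise from p0 to the adult.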

How the data were processed

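Single tdTomato+ DRG neurons had been sequenced by Plate-seq, 1 plate of 96 wells per library. The authors deposited raw UMI counts, whole numbers for each gene in each well, from reads aligned with STAR to mm10. The authors' annotation of kept neurons and hicat clusters, deposited beside the counts, gave the members. It was copied as the authors gave it, its well names being matched to the plates by their labels.

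For each cluster and plate the UMI counts of its neurons were added up (sums of 198310 to 517305 UMIs, 181143 to 471772 in the tested genes) and compared with edgeR 4.0.16 under R 4.3.3 (quasi-likelihood F-test after filterByExpr and TMM, plate as block, Benjamini-Hochberg adjusted p under 0.05), with 1 residual degree of freedom. Both clusters of a plate come from 1 library, which pairs them, and the plate difference of cluster 2 correlated with that of cluster 3 over 5533 genes (r = 0.16, across genes, which are not independent). CPM is a gene's UMIs per 1000000. For a fold against a cluster without a UMI, that cluster was set to 3 counts over the group. Promoters were the 250 bases upstream in RefSeq. Doublets had been gated out by the authors at the sort by scatter, and no caller was run here.

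Named are *Maf*, *Etv1*, *Pvalb* and *Runx3*, the 15 largest rises and 15 largest falls in cluster 3 among called genes alike in direction on both plates (predicted genes skipped), called members of the gene lists, and all members of the marker and neurotrophin receptor lists. Of the genes so chosen, 1 of the rises and 2 glial markers are not reported here. *Gys1*, *Slc39a10*, *Pcgf2*, *Ncbp3* and uncalled members of other lists were chosen after their values were seen. The members and lists were chosen with earlier results of these data known. Alternatives were DESeq2 1.42.0, its size factors in edgeR, no filter, no block, all 4 clusters, all stages, each plate left out with the spread pooled over all stages, and neurons thinned to 8395 UMIs. Left out, chosen after seeing the data, were the neuron with most UMIs of each gene in each sum, and neurons whose barcode held cluster 1 on the other plate. The fit was also tested on simulated counts. Python 3.11.15, pandas 2.3.3, scipy 1.17.1 and matplotlib 3.10.9 made tables and figures. The table of all plates holds the same counts in its 1137 wells and was not used.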

Additional observations from a re-analysis of the deposited data

Results flagged for a closer look

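Among the 31 genes whose later levels are described, 60 sets of 4 p12 or 5 adult plates were searched for a plate far from the rest, and 3 were found. The critical value is set to find about 1 in 20 sets of normally distributed values, a rate that was not checked for levels near 0 such as these. *Nrp1* was at 8.95 CPM on p12 replicate 1 and between 0 and 1.47 CPM on the others. *Nts* was at 1.47 CPM on p12 replicate 2 and at 0 CPM on the others. *RP24-175C20.10* was at 33.4 CPM on p12 replicate 4 and at 2.10 CPM or less on the others.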

How the results depend on the processing

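The 133 calls between cluster 3 and cluster 2 became 34 with DESeq2 (966 genes had no adjusted p, 138 had an unadjusted p under 0.05), 249 without a filter on low counts (19652 genes tested, 130 of the 133 among them), 207 without the neuron that held most UMIs of each gene (118 shared) and 239 without the neurons whose barcode held cluster 1 on the other plate (8 neurons left out, 131 shared), the last 2 chosen after seeing the data. Leaving out 1 plate gave 51 to 59 calls, 43 to 47 of them shared, from fits where the lone pair of sums is assumed to vary like the other stages. No replicate block gave 104 calls (102 shared), all 4 clusters 172, all stages 143 (110 shared), thinned neurons 148 and DESeq2's size factors 132. The cause of these shifts was not tested, apart from the number of genes tested. The direction of the 41 named calls held under each alternative that could fit them, and 13 kept the call in each. The edges of what can be seen are set by 2 plates and by sums of 198310 to 517305 UMIs, so a gene not called may still differ.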

Other observations

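Genes called between the clusters but outside the rule for named genes were chosen here after their values were seen. They are single genes and no count over a family. The plasma membrane calcium pump genes *Atp2b1* (319 and 305 CPM in cluster 2 against 578 and 842 CPM in cluster 3, adjusted p = 0.000786) and *Atp2b2* (159 and 178 against 395 and 388 CPM) were higher in cluster 3. *Igf1*, the growth factor, was at 309 and 266 CPM in cluster 2 and at 614 and 903 CPM in cluster 3, while *Igfbp5*, which binds it, was lower there. *Nfia*, a nuclear factor, was at 59.9 and 42.3 CPM in cluster 2 and at 330 and 227 CPM in cluster 3, and *Nrn1* (neuritin) at 25.1 and 14.8 against 134 and 156 CPM. Lower in cluster 3 were the transcriptional regulators *Runx1t1* (2498 and 2712 against 1113 and 1114 CPM), *Bcl11a* (81.2 and 99.4 against 35.9 and 5.04 CPM) and *Ikzf2* (120 and 65.6 against 29.4 and 15.1 CPM), and *Rgmb*, a co-receptor of bone morphogenetic proteins (73.5 and 84.6 against 19.6 and 10.1 CPM).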
